A study of Mus musculus with 6 samples.

Results

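The genes described here encode the proteins that fill, dock, fuse and recycle synaptic vesicles, together with the enzymes that make GABA. The list held 37 genes, chosen by name, and all 37 were found among the 18193 genes that the array annotation names by a probe set with a single symbol. Each gene is represented by 1 probe set, the one with the highest mean signal over the 6 arrays, and 36 of the 37 also lay in the brighter 40% of all probe sets. The striatum was taken from 3 female PGC-1a KO mice (PGC-1a-/-) and 3 female WT mice (PGC-1a+/+), all aged 6 months and bred from heterozygous (PGC-1a+/-) founders. PGC-1alpha is a transcriptional coactivator of mitochondrial genes. Each mouse gave 1 Affymetrix array, and no mouse received a treatment according to the labels. The label of KO 3 gives cytoplasmic RNA and the labels of the other 5 mice give total RNA, so the genes in which KO 3 stood apart, and the list as a whole, are also given without it.

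A nerve terminal releases transmitter when a vesicle fuses with the plasma membrane. The vesicle SNARE Vamp2 and the membrane SNAREs Snap25 and Stx1a form the complex that drives fusion. Synaptotagmins such as Syt1 sense the calcium that triggers fusion, and complexins clamp and assist the complex. Active zone scaffolds and Unc13 proteins hold and prime vesicles, Rab3 proteins tether them, synapsins keep a reserve pool, and dynamin and its partners retrieve the membrane afterwards. Most neurons of the striatum are GABAergic medium spiny neurons, which make GABA with Gad1 and Gad2 and load it through Slc32a1. Axons from the cortex and thalamus bring glutamate terminals into the tissue, but their cell bodies, which hold most of the mRNA, lie outside it.

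The labelled genotype and tissue were checked first. All 5 Ppargc1a probe sets were lower in every KO mouse than in any WT mouse, and the one with the largest change read 89.5, 87.9 and 68.4 in KO against 397, 305 and 370.3 in WT (limma adjusted p = 3.0e-05). Medium spiny neuron markers were present, with 7 of 9 measured and none below a signal of 680.5. Markers of cortical excitatory neurons, 5 of 6 measured, were low and uneven: their summed signal ran from 264.7 to 704.4 in KO and from 325 to 582.9 in WT, with the top value in KO 3. Thalamus, septum and pallidum markers, all 6 measured, summed to 1772 to 2176 in KO and 673.5 to 1967 in WT, the lowest value being that of WT 2. None of the marker genes passed the threshold. None of the defining markers was at 0, though Erbb4 for parvalbumin interneurons and Chat for cholinergic interneurons were below the filter on dim probe sets.

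Promoter sequences are shown for the members that hold a motif of a factor linked to PGC-1alpha or to neuronal genes. PGC-1alpha coactivates NRF-1 and the ERR receptors, CREB binds the CRE, and the repressor REST binds the RE1 element of many neuronal genes. RefSeq promoter windows of GRCm38.p6, from 250 bases before to 50 after the start, were found for 29 of the 37 members and searched on both strands with 4 motifs. The NRF-1 letters GCGCNTGCG were in 6 members (Syp, Syngr1, Sv2a, Syn1, Bsn and Pclo), 20.7% of the 29, and in 7.12% of all 27025 genes with a window. The comparison does not take the base composition of the windows into account. The CRE letters TGACGTCA were in 1 member, Syn1, and in 2.03% of all genes. TTCAGCACC, which begins the RE1 element, was in 2 members, Syn1 and Unc13a, and in 0.433% of all genes. The ERR letters TCAAGGTCA were in 0 of the 29 and in 0.466% of all genes. The sequences are read 5′ to 3′ on the strand of the gene, lie before the start, and carry the matches in capitals, where matches on both strands that overlap are joined.
Bsn, chr9:108190487-108190566, minus strand, NRF-1: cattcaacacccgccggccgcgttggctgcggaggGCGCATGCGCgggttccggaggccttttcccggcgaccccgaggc
Bsn, chr9:108190384-108190435, minus strand, NRF-1: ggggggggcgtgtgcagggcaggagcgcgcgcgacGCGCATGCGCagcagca
Pclo, chr5:14514854-14514917, plus strand, NRF-1: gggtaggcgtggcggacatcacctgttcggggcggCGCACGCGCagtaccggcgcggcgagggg
Syp, chrX:7638517-7638579, plus strand, NRF-1: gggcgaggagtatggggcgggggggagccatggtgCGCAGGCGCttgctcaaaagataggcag
Sv2a, chr3:96181136-96181214, plus strand, NRF-1: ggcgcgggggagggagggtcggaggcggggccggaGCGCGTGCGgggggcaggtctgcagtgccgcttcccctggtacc
Syn1, chrX:20921107-20921168, minus strand, NRF-1 and then RE1: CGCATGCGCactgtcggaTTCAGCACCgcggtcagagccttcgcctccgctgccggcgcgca
Syn1, chrX:20921035-20921112, minus strand, CRE: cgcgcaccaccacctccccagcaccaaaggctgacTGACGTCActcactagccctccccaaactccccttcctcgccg
The matches of Syngr1 and Unc13a lie after the start and are not printed. A match is a stretch of letters and does not show that the factor binds there.

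No vesicle or release gene passed the threshold for a difference between KO and WT, an adjusted p under 0.05 in limma over all probe sets. The count was 0 of 37, where 0.47% of all 27022 probe sets tested passed. The median KO minus WT difference of the 37 was 0.03 on the log2(signal + 16) scale, with 23 genes higher and 14 lower, and the median over all probe sets tested was -0.0045. Among the 2281 probe sets as bright as the middle 50% of the members the median was 0.02 and 56.9% were higher, close to the 62.2% of the members. At an unadjusted p under 0.05 there were 6 of the 37 (16.2%), namely Rab3a, Sv2c, Rims3 and Bsn higher in KO and Synpr and Unc13c lower, against 9.17% of all probe sets. Without the intensity trend in limma the count was 3, against 8.73% of all probe sets, and it was 4 without KO 1 and 4 without WT 3. It was 7 with quantile normalization, against 9.24% of all probe sets, and 7 without WT 2, against 8.84%. Rab3a and Synpr kept an unadjusted p under 0.05 without any 1 mouse, while Sv2c, Rims3, Bsn and Unc13c each lost it without at least 1. In the fit of all 6 mice that is 4 higher, where 4.11% of all probe sets were, and 2 lower, where 5.06% were. The groups did not overlap for 9 of the 37 (24.3%), against 14.4% of all probe sets. Of these, 4 were higher in KO (6.52% of all probe sets) and 5 lower (7.88%). The smallest adjusted p was 0.11, for Rab3a. For 31 of the 37 genes the 95% interval of the difference lay within 0.5 of 0 on the log2 scale. The 6 with a wider interval were Cplx3, Sv2c, Rims3, Unc13a, Rab3a and Rph3a. In whole tissue, fewer cells of a type and less RNA per cell cannot be told apart.

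**Figure D1:**
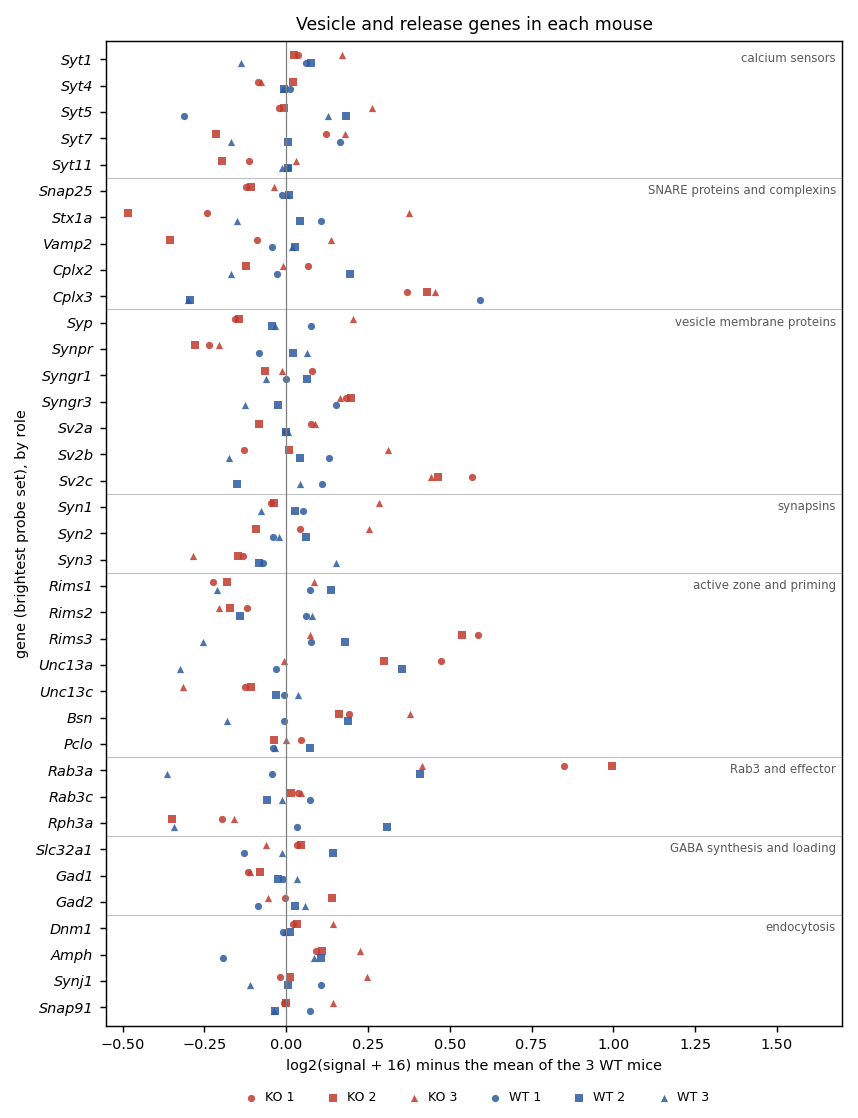
Log2(signal + 16) of each gene in each mouse minus the mean of the 3 WT mice (x axis), 1 row per gene ordered by role; red marks are KO, blue marks WT, and the shape gives the mouse. Most marks lie within 0.4 of 0, and Rab3a in KO 1 and KO 2 lies farthest to the right.

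The synaptotagmins of the list were close to their WT levels. Syt1, the fast calcium sensor of evoked release, read 4883, 4842 and 5368 in KO and 4967, 5025 and 4328 in WT, a difference of 0.08 (SE 0.08, limma adjusted p = 0.815). The groups overlapped, with KO 3 the highest of the 6 mice and WT 3 the lowest. Syt4, an atypical synaptotagmin of dense-core vesicles, differed by -0.05, Syt5 by 0.08, Syt7, a slow sensor linked to facilitation and vesicle replenishment, by 0.03 and Syt11 by -0.09. All 5 intervals lay within 0.5 of 0, and the range of the 5 differences was -0.09 to 0.08. Syt1 has 4 probe sets, and all 4 differed in the same direction, by 0.04 to 0.12. The tested probe sets of Syt7 and Syt11 had both signs, from -0.0057 to 0.23 for Syt7 and from -0.09 to 0.10 for Syt11.

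The SNARE genes were also near WT levels. Snap25 read 8796, 8888.5 and 9334 in KO and 9485, 9641 and 9602 in WT. Every KO mouse was below every WT mouse, but by little: the means were 9006 ± 288 and 9576 ± 81 (SD, n = 3) and the difference was -0.09 (95% interval -0.22 to 0.04, adjusted p = 0.72). A second, dimmer Snap25 probe set gave 0.20. Vamp2, the vesicle SNARE, differed by -0.10 by its brightest probe set and by 0.22 by the other, and the former was -0.22 without KO 3. Stx1a differed by -0.12 (interval -0.49 to 0.25) and varied among KO mice, as described further on. Cplx2, the complexin of many forebrain neurons, differed by -0.02. Cplx3 read 95.5, 100.3 and 102.3 in KO and 114.2, 54.5 and 54.2 in WT, so the KO mice lay together while WT 1 stood above all of them. Its difference of 0.42 (SE 0.22, adjusted p = 0.615) became 0.71 without WT 1, which did not pass either (adjusted p = 0.13, with 0.13 to 0.81 over all alternatives), and 0.27 without WT 2 or without WT 3. In the same mouse, WT 1, Pvalb read 1362 against 651.8 and 701.1 in the other WT mice, and it read 475.5, 747.9 and 444 in KO. The summed thalamus, septum and pallidum markers read 1938, 2176 and 1772 in KO and 1967, 673.5 and 1593 in WT. The part of tissue composition in the Cplx3 value was not tested.

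Among the vesicle membrane proteins, Synpr and Sv2c stood out in opposite directions. Synpr encodes synaptoporin, a relative of synaptophysin. It read 1541, 1495 and 1573 in KO and 1712, 1842 and 1898 in WT. All 3 KO mice were below all 3 WT mice, with means of 1536 ± 39 and 1817.5 ± 95 (SD, n = 3). The difference was -0.24 (SE 0.07, interval -0.39 to -0.09), which is -15.3%, with an adjusted p of 0.24. Leaving out any 1 mouse kept it between -0.28 and -0.21. Sv2c, an SV2 vesicle glycoprotein found mainly in the basal ganglia, read 54.3, 49.4 and 48.4 in KO and 35.1, 26.7 and 32.8 in WT. The KO mice were all higher, but the signal was near the filter value of 26.8. The difference was 0.49 (SE 0.19, adjusted p = 0.42), and with an added offset of 64 in place of 16 it was 0.26. Syngr3, a synaptogyrin, read 604.5, 611 and 596 in KO against 591.1, 520.8 and 484.5 in WT (difference 0.18, adjusted p = 0.58), without overlap. Its second probe set gave 0.10 with overlapping groups. The remaining members of this group, Syp, Syngr1, Sv2a and Sv2b, ran from -0.03 to 0.06. Syp, Syngr1 and Sv2a, which hold the NRF-1 letters, differed by -0.03, 0.00 and 0.03.

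The synapsins, which coat vesicles and hold the reserve pool, did not pass either. Syn1 read 1213, 1223 and 1529 in KO and 1300, 1277 and 1187 in WT (difference 0.07, SE 0.09, adjusted p = 0.88). Only KO 3 exceeded the WT mice, and without KO 3 the difference was -0.04. Syn2 differed by 0.07, or -0.02 without KO 3, and its 4 tested probe sets ran from -0.02 to 0.07. Syn3 read 280, 276.9 and 250.4 in KO and 293.3, 290.3 and 344.8 in WT, lower in every KO mouse (difference -0.19, interval -0.41 to 0.04, adjusted p = 0.64). Its other probe sets gave -0.0045 and -0.32.

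Of the 7 active zone and priming genes none passed the threshold. Rims3, Bsn and Unc13c (42.9%) had an unadjusted p under 0.05, against 9.17% of all probe sets. Each of these genes lost it without at least 1 mouse. Rims3, a short member of the RIM family, read 347.5, 334.9 and 238.7 in KO and 239.2, 257.9 and 186.7 in WT. KO 1 and KO 2 were above all WT mice, and KO 3 fell among them, so the groups overlapped (difference 0.40, SE 0.15, adjusted p = 0.415). Without KO 3 it was 0.56 (adjusted p = 0.195, with 0.195 to 0.74 over all alternatives). Bsn, the giant scaffold bassoon, read 661.2, 646.6 and 755.3 in KO and 574, 659.3 and 507.2 in WT. The KO mean of 688 ± 59 exceeded the WT mean of 580 ± 76 (SD, n = 3), with KO 2 just below WT 2 (difference 0.24, interval 0.02 to 0.47, adjusted p = 0.48). The Bsn difference was 0.15 without WT 3 and 0.18 without KO 3. Pclo, the related scaffold piccolo, differed by 0.00 (interval -0.15 to 0.16). Bsn and Pclo both carry the NRF-1 letters before their starts. Over the 6 members with those letters the differences ran from -0.03 for Syp to 0.24 for Bsn, and the median of the 23 other members with a window was 0.05.

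Unc13c, a Munc13 priming protein, read 1604.5, 1625 and 1407 in KO and 1744.5, 1716 and 1797 in WT. Every KO mouse was lower, with means of 1545 ± 120 and 1752 ± 41 (SD, n = 3) and a difference of -0.18 (SE 0.07, adjusted p = 0.46). KO 3 was the lowest, and without it the difference was -0.12. Its second probe set pointed the same way and was larger, reading 511.9, 613.5 and 527.1 in KO and 724.6, 713.4 and 702.8 in WT (difference -0.37, SE 0.09, adjusted p = 0.12). The remaining, dim Unc13c probe set gave 0.11. Unc13a, the main Munc13 of forebrain synapses, differed by 0.25 with overlapping groups (interval -0.11 to 0.62). That value was 0.09 without WT 3, 0.43 without WT 2 and 0.39 without KO 3. Rims1, a RIM scaffold, differed by -0.11 and by -0.10 in its 2 probe sets. Rims2, the related scaffold, differed by -0.17 by its brightest probe set (adjusted p = 0.58).

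Rab3a had the largest difference of the 37 genes, and it came from 1 of its 2 probe sets. Rab3a is the main Rab GTPase of synaptic vesicles. The brighter probe set read 2776, 3075 and 2055 in KO and 1488, 2043 and 1190 in WT. The groups were separated only by the narrow gap between KO 3 and WT 2. The means were 2635 ± 524 and 1574 ± 433 (SD, n = 3), a difference of 0.75 (SE 0.17, interval 0.38 to 1.13) or 68.5%, with a limma adjusted p of 0.11. Without WT 2 the difference was 0.96 and passed the threshold (adjusted p = 0.026, with 0.0041 to 0.415 over all alternatives). Without any other single mouse it did not pass, and without KO 3 the difference was 0.92. The second Rab3a probe set read 1417, 1428 and 1495 in KO and 1604, 1478.5 and 1391 in WT, with overlapping groups and a difference of -0.04 (SE 0.07). The higher signal was thus seen by only 1 of the 2 Rab3a probe sets. By Affymetrix naming, the suffix of the brighter one marks a probe set some of whose probes also match other transcripts. With the mean of both probe sets the difference was 0.36 (adjusted p = 0.298). Rab3c, a second Rab3, differed by 0.03, with 3 of its 4 tested probe sets between 0.03 and 0.14 and the dimmest at -0.34. Rph3a, the Rab3 effector rabphilin, read 636, 570.6 and 652.9 in KO and 748.6, 908.7 and 572.9 in WT (difference -0.23, interval -0.53 to 0.06), and the groups overlapped. The Rph3a difference was -0.41 without WT 3 and -0.08 without WT 2.

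**Figure D2:**
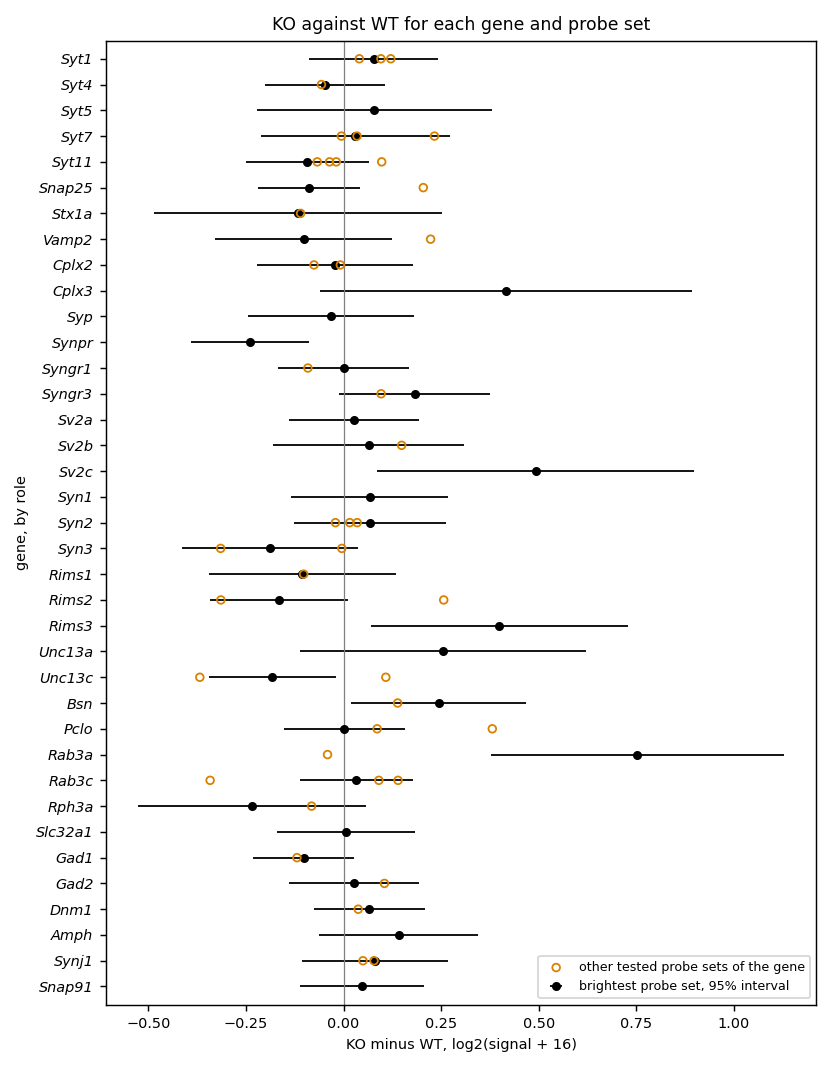
KO minus WT difference on the log2(signal + 16) scale for each gene: black points are the brightest probe set with its 95% interval from limma (3 mice per group), and open orange circles are the other tested probe sets of the gene. Rab3a has the largest difference, 0.75, while its other probe set lies at -0.04.

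The GABA genes were measured precisely and lay near WT levels. Gad1, which makes most of the GABA in the cell body, read 5952, 6105 and 5978 in KO and 6417, 6340 and 6611 in WT. All KO mice were lower, with means of 6012 ± 82 and 6456 ± 140 (SD, n = 3) and a difference of -0.10 (interval -0.23 to 0.03, adjusted p = 0.66). The second Gad1 probe set read 1741, 1941.3 and 1829 in KO and 2023, 2022 and 1941.4 in WT, with a difference of -0.12 (adjusted p = 0.66). Its groups did not overlap, but KO 2 and WT 3 were practically equal. Gad2, the synaptic isoform, differed by 0.03 and Slc32a1, the vesicular GABA transporter, by 0.01. The interval for Slc32a1 was -0.17 to 0.18.

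The 4 genes of vesicle retrieval all had positive differences, from 0.05 to 0.14, and none passed. Dnm1, the neuronal dynamin that cuts vesicles from the membrane, read 2244, 2266 and 2447 in KO and 2198, 2233 and 2209 in WT. The KO mice were all higher, by a difference of 0.07 (interval -0.08 to 0.21, adjusted p = 0.82), and without KO 3 it was 0.03. Amph, the dynamin partner amphiphysin, differed by 0.14, Synj1, the lipid phosphatase synaptojanin that strips the clathrin coat, by 0.08, and Snap91, the clathrin adaptor AP180, by 0.05. For Amph, Synj1 and Snap91 the groups overlapped. KO 3 was the highest mouse for all 4 genes, and without it Amph differed by 0.10, Synj1 by -0.0037 and Snap91 by -0.0026. Amph differed by 0.05 without WT 1.

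Agreement among probe sets of a gene was examined next. The 37 genes had 93 probe sets, of which 79 were tested and 14 were below the filter on dim signals. Of the 79, 0 passed the threshold. Of the 25 genes with several tested probe sets, 15 had differences of one sign throughout and 10 had both signs. Rims2 was the widest after Rab3a: its brightest probe set gave -0.17. Another Rims2 probe set read 559.9, 623.4 and 568.1 in KO against 538.6, 505 and 420.7 in WT (0.26), and a further one gave -0.31 (adjusted p = 0.44 and 0.48). For Pclo the dimmest tested probe set gave 0.38 and the brightest 0.00. Both signs also occurred in Unc13c, Vamp2, Snap25, Rab3c, Syt7, Syt11, Syngr1 and Syn2. The differences of single probe sets in these genes were thus not shared by all of the gene's probe sets.

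**Figure D3:**
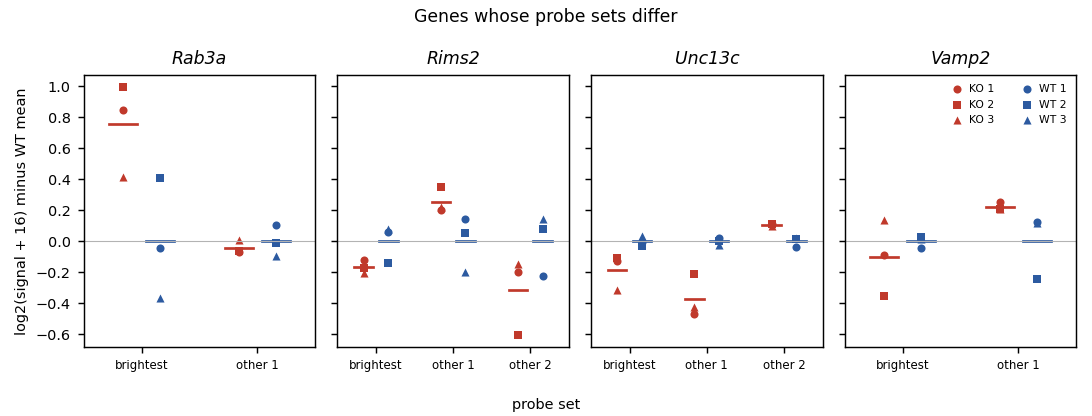
Log2(signal + 16) minus the WT mean for every tested probe set of Rab3a, Rims2, Unc13c and Vamp2; red is KO, blue is WT, the shape gives the mouse and the bars are group means of 3 mice. In Rab3a only the brightest probe set is higher in KO, by 0.75, and in Unc13c 2 probe sets are lower in KO (-0.18 and -0.37) and the remaining one is not.

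Much of the variation in these genes lay within the genotypes, and KO 3 was the mouse most often apart. KO 3 had the highest signal of the 6 mice for 16 of the 37 genes (43.2%), and the corresponding share over all probe sets tested was 16.8%. Among the 2281 probe sets of like brightness it was 15.1%. The 16 genes were Syt1, Syt5, Syt7, Syt11, Stx1a, Vamp2, Syp, Sv2a, Sv2b, Syn1, Syn2, Bsn, Dnm1, Amph, Synj1 and Snap91, each by its brightest probe set. The other tested probe sets of Syt1, Stx1a, Sv2b, Dnm1 and Synj1 were also highest in KO 3. Those of Syt11, Vamp2 and Bsn were not, and those of Syt7 and Syn2 were so only in part. WT 3 had the lowest signal for 12 of the 37 (32.4%), against 24.8% of the probe sets of like brightness. The per-mouse median of the 37 genes, relative to the WT mean, was -0.0024, -0.036 and 0.088 in KO and -0.0019, 0.026 and -0.0325 in WT. Without KO 3 the median difference turned from 0.03 to -0.01 and the number of genes higher in KO from 23 to 15. Without WT 3 the median was -0.0005 with 18 genes higher, and without WT 1 it was 0.0059 with 19 higher. With quantile normalization of all 6 arrays it was 0.0122 with 20 higher. The direction of the list as a whole thus depended on which mice were kept.

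Stx1a showed the widest gap between KO 3 and the other KO mice, reading 480.6 and 403.9 in KO 1 and KO 2, 745.7 in KO 3, and 616.3, 589.1 and 513.4 in WT. Without KO 3 the Stx1a difference was -0.36 (adjusted p = 0.36, with 0.36 to 0.98 over all alternatives) instead of -0.12. Syp, the abundant vesicle protein synaptophysin, read 935.5, 943.4 and 1204 in KO and 1101.5, 1013 and 1019 in WT, and its difference was -0.15 without KO 3. For Sv2b it was -0.06 without KO 3 and 0.06 with it. Stx1a and Syp, with Vamp2, Sv2b and Syn1, were the 5 in which KO 3 exceeded the mean of KO 1 and KO 2 by over 0.3 on the log2 scale, a group chosen after its values were seen. The second tested probe set of Vamp2 did not have this gap, reading 498.4, 481.8 and 483.7 in KO. In those of Stx1a (123.1, 100.9 and 217.7) and Sv2b (428.9, 426.3 and 570.3) KO 3 was again the highest KO mouse. The summed cortical excitatory markers were also highest in KO 3, at 264.7, 279.4 and 704.4 in KO and 582.9, 504 and 325 in WT. Slc17a7, the vesicular glutamate transporter of cortical neurons, read 88.3, 107.6 and 279.1 in KO and 242.6, 184.7 and 116.3 in WT. Neurod6 and Tbr1 were likewise highest in KO 3, but the remaining cortical markers were not. Neurod2 read 130.8 in KO 3 and 140.1 in WT 2, and Fezf2 read 44.4 in KO 3, below all WT mice (66, 46 and 48.3). In WT the sum fell in the order WT 1, WT 2, WT 3, an order shared by Stx1a, Sv2b and Syn1 but not by Vamp2, which was lowest in WT 1, or by Syp. Whether cortical tissue or the RNA fraction named in the label has a part in these 5 genes was not tested.

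By the brightest probe set, KO 3 was over 0.3 below the mean of KO 1 and KO 2 in 3 genes, Rab3a, Rims3 and Unc13a. This group was chosen after its values were seen. All 3 were also higher in WT 2 than in WT 1 and WT 3, and lowest of all mice in WT 3. In the second Rab3a probe set KO 3 was instead the highest KO mouse (1417, 1428 and 1495). WT 1 was its highest WT mouse (1604, 1478.5 and 1391). Unc13a read 284.3, 250 and 199.1 in KO and 195.8, 260.3 and 156.8 in WT. Ppp1r1b, the striatal phosphoprotein DARPP-32 and a medium spiny neuron marker, read 4475, 4062 and 3790 in KO and 3599, 4745 and 3213 in WT. Its WT mice had the same order as in the 3 genes, and KO 3 was likewise its lowest KO mouse. This marker too was chosen after its values were seen. The other medium spiny markers measured had the same WT order. KO 3 was the lowest KO mouse in all of them but Rgs9, where it was the highest (2277, 2132 and 2399). The 7 medium spiny markers measured summed to 25387 to 27766 in KO and 23501 to 28066 in WT, with WT 2 the highest mouse and WT 3 the lowest. The part of tissue composition in the Rab3a, Rims3 and Unc13a values was not tested.

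**Figure D4:**
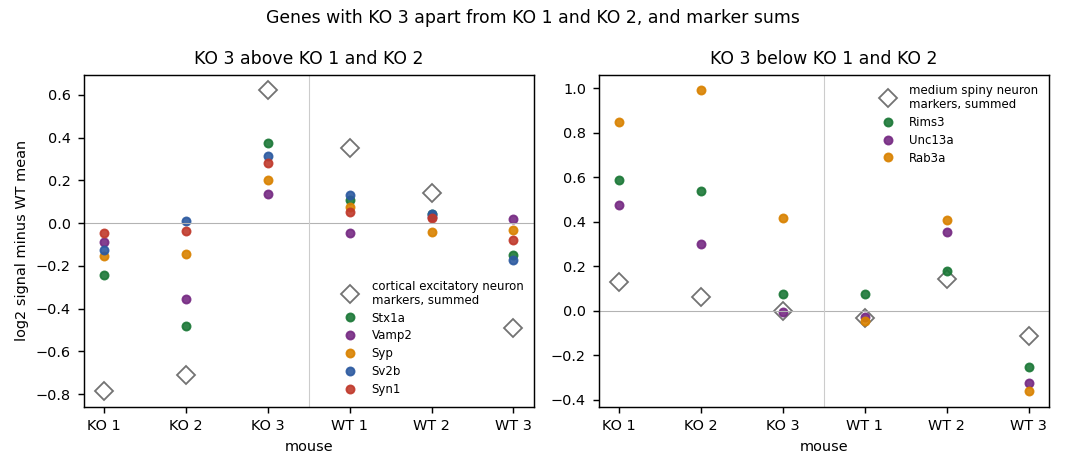
Log2 signal of each mouse minus the WT mean for the 5 genes in which KO 3 lies over 0.3 above KO 1 and KO 2 (left) and the 3 in which it lies over 0.3 below (right); genes are on the log2(signal + 16) scale, and open diamonds are summed marker signals on a log2 scale without offset. Each gene is shown by its brightest probe set. On the left the summed cortical markers are highest in KO 3, at 704.4. On the right the summed medium spiny markers are highest in WT 2 and lowest in WT 3.

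Other genes of the vesicle cycle were taken from a list of 64, of which 59 had a probe set with a single symbol and 58 were tested. None of the 58 passed the threshold, against 0.47% of all probe sets, and 3 (5.17%) had an unadjusted p under 0.05, against 9.17%. Their median difference was 0.02, with 34 higher and 24 lower. On the lower side the smallest p-values belonged to Cplx1, Syt2 and Vamp1, of which Vamp1 was not under 0.05 even unadjusted (limma adjusted p = 0.61). Cplx1 read 2572, 2741 and 2594 in KO and 3918, 3259 and 2938 in WT (difference -0.34, adjusted p = 0.20), and Syt2 differed by -0.78 (adjusted p = 0.23). Vamp1 read 384.4, 376.7 and 398.9 in KO and 704.4, 390.2 and 424.1 in WT, with a difference of -0.33. WT 1 was the highest mouse for all 3 of these genes. Of the parvalbumin interneuron markers, Pvalb read 475.5, 747.9 and 444 in KO against 1362, 651.8 and 701.1 in WT (difference -0.64, adjusted p = 0.41). Kcnc1 differed by -0.34 (adjusted p = 0.49), and both were highest in WT 1. Kcnc2 went the other way, with a difference of 0.20 (adjusted p = 0.84). It read 395.4, 395.3 and 392.2 in KO and 568, 246.1 and 282.1 in WT, also highest in WT 1. The 4 parvalbumin markers summed to 1256 to 1733 in KO and 1416 to 2699 in WT, with Erbb4 below the filter, and their part in these values was not tested. On the higher side, Dnajc5, the vesicle chaperone CSPalpha, read 1080, 1084 and 1110 in KO and 933.6, 955.4 and 982.7 in WT. All KO mice were above all WT mice (difference 0.19, SE 0.07, adjusted p = 0.40). Pacsin1, a dynamin-binding protein, differed by 0.19 and Syt9 by 0.38, both with overlapping groups. Cltc, the clathrin heavy chain, differed by 0.02. The subunits of its adaptor AP-2 ran from -0.21 for Ap2a1 to 0.24 for Ap2b1, with overlapping groups in both.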

How the data were processed

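Striatal RNA of 3 KO and 3 WT mice was hybridised to 1 array per mouse. The deposited file holds linear intensity values, made by the authors with MAS5 per the submitters' processing notes, with no version or settings named in the sources used here. All arrays had been scaled alike (means of 149.29 to 149.35 after trimming 2% at each end), so changes are relative within an array. The number of arrays, 3 per group, limits precision. Of 45101 probe sets, 64 controls were left out, and 34945 others had 1 symbol, updated through the GRCm38.p6 gene table. Values were log2(signal + 16), which understates changes of dim probe sets, and the lowest 40% (a signal up to 26.8) were left out. KO and WT were compared with limma 3.58.1 in R 4.3.3 (lmFit, eBayes with trend), with Benjamini-Hochberg adjustment across 27022 probe sets. A two-sided exact permutation test of 3 mice against 3 cannot go below p = 0.1, the value for each of the 9 members without overlap. The replicates are separate mice. Mouse values are given for members without overlap, with an unadjusted p under 0.05 or brightest in their role, and for some chosen after their values were seen; of the other vesicle genes, the 3 smallest p-values in each direction are named. The members and lists were chosen with earlier results of these data known. Alternatives were other normalizations, offsets, filters and variance models, a replicate block, averaged probe sets and leaving out each array. The code was tested on simulated data.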

Additional observations from a re-analysis of the deposited data

How the results depend on the processing

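Under the 15 alternatives, 19 of the 37 genes kept the sign of their difference and 18 changed it under at least 1, and none of those 18 passed the threshold under any alternative. No member passed the threshold except Rab3a, and the count of members called was 1 with the replicate block and ran from 0 to 1 when 1 array was left out, being 1 without WT 2. With the replicate block Rab3a had an adjusted p of 0.0041 at the same difference of 0.75. The adjusted p of Rab3a lay between 0.0041 and 0.415 across the alternatives. The labels give no pairing of the mice by replicate number. Over all probe sets tested, the deviations of KO and WT mice with the same number correlated at -0.01, -0.03 and 0.02. A pairing that affects few probe sets would not show in these correlations. With the block the number of probe sets called was 100. No other vesicle gene of the list of 64 was called under any alternative. The median difference of the members was 0.0274, and 0.0714 after centring every array on its own median, a setting in which the median of all probe sets moved to 0.0395. It was 0.0577 with the probe sets of each gene averaged. Leaving out 1 array gave -0.0139 (without KO 3) to 0.0666 (without KO 2). Of all probe sets, 127 were called, 52 with no filter and 25 without the intensity trend, and 65 to 102 without 1 array, the lowest counts being those without KO 1 (65), WT 2 (70) and KO 2 (73). The cause was not tested. Sv2c was not tested with a filter at the 60th percentile. Signals near 26.8, as for Sv2c, have the least precision.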
